A study of Mus musculus with 346 samples.

Results

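Transcripts of 9 milk protein genes were followed through single mammary gland cells of mice of the inbred FVB/NJ strain, from pre-puberty to adulthood. The 9 genes were taken as a named set from the 25142 genes analysed, by matching the Entrez number of each row to a symbol, and all 9 had a match. They are the caseins Csn1s1, Csn1s2a, Csn2 and Csn3, the lactose synthase subunit gene Lalba, the whey acidic protein gene Wap, Wfdc18, Btn1a1 and Trf. By label, 144 cells came from pre-pubertal mice aged 2 weeks, 136 from pubertal mice aged 4.7 to 4.9 weeks and 66 from adults aged 10 weeks, and all were described as total epithelium, with no treatment and no genetic change given. The cells were sorted, caught on a Fluidigm C1 chip that isolates each cell in its own chamber, and converted to full-length cDNA before sequencing. After a coverage filter, 116 pre-pubertal, 119 pubertal and 44 adult cells remained, with a median of 296682, 574693 and 334290 read pairs (called reads here) on the analysed genes.

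No label ties a cell to a mouse, and the sources used here differ on how many mice each stage came from. Each stage was therefore 1 sample, and cells of a stage are not replicates. No statistical test was possible, and the differences below are descriptions of these 3 collections of cells. Intervals cover counting error only, not the spread between mice, sorts or chips, and amplified copies of a molecule were counted separately. The pre-pubertal cells carried few epithelial transcripts. A median of 0 of 14 epithelial markers was detected per pre-pubertal cell, against 9 at puberty and 7 in the adult, while 13 Schwann cell markers summed to 16730 reads per 1000000 reads (CPM) in the pre-pubertal cells, 1387 in the pubertal and 295.9 in the adult cells. The part of this difference in the stage comparisons of milk protein genes was not tested.

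Caseins are the main proteins of milk, and kappa-casein, encoded by Csn3, keeps the casein micelle in solution. Milk protein genes are known as targets of prolactin, which acts through its receptor (Prlr) and the transcription factor STAT5 in secretory luminal cells, together with glucocorticoids and C/EBP factors. They are best known for their high levels in pregnancy and lactation. The mammary epithelium has an inner luminal layer marked by Krt8 and Krt18 and an outer basal layer marked by Krt14.

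The 4 casein genes lie together on chromosome 5 (mm10), between positions 87666208 and 87932550. Wap and Wfdc18 lie on chromosome 11, Lalba on 15, Btn1a1 on 13 and Trf on 9. Promoter windows of 300 bases, from 250 before to 50 after the start site, were at hand for 6 of the 9 genes in the RefSeq annotation of GRCm38.p6. The windows of Csn1s1 (chr5:87665958-87666257, plus strand), Csn2 (chr5:87699376-87699675, minus strand) and Csn1s2a (chr5:87774200-87774499, plus strand) are shown because these 3 genes had the greatest adult excess over puberty. Capitals mark matches to the STAT motif TTCNNNGAA or to the C/EBP motif TTNNGNAAT, each searched on both strands.
Csn1s1: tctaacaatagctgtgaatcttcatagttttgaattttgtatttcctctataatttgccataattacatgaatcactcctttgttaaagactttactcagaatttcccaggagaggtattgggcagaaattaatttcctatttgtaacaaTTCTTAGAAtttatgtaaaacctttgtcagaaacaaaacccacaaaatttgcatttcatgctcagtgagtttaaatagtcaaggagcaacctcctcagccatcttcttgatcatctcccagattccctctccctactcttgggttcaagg
Csn2: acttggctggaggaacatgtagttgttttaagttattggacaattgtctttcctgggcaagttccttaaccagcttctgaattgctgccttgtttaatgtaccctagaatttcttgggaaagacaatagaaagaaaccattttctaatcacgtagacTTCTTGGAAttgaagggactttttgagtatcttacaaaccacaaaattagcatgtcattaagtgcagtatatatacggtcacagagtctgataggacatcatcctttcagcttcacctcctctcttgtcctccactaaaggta
Csn1s2a: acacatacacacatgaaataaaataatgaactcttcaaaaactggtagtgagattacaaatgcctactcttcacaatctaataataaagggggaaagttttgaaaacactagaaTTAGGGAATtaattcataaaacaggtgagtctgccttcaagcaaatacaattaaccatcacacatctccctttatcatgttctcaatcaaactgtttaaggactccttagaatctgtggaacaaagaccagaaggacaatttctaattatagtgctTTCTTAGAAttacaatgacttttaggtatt
The STAT motif began 100 bases before the start site in Csn1s1 and 93 bases before it in Csn2, and in Csn1s2a it lay after the start site, as the last run of capitals. It was absent from the windows of Lalba, Wap and Wfdc18, so 3 of 6 members held it, against 8.47% of 27025 promoters of the same length. The C/EBP motif occurred in 1 of the 6 windows, that of Csn1s2a, where it is the first run of capitals, and in 11.6% of all promoters. No match of the STAT and C/EBP motifs overlapped in these windows. A match is a description of the letters and not a site of binding.

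Milk protein transcripts were nearly absent from the pre-pubertal cells and at puberty were mostly those of Csn3, Wfdc18 and Trf. In the adult they were led by Csn1s1, followed by Csn3, Csn2 and Csn1s2a in reads. Csn3, Trf and Wfdc18 also made up most of the few pre-pubertal reads (48.3%, 34.5% and 16.0%). Summed over the kept cells of a stage, the 9 genes took 89.2 CPM of the pre-pubertal reads (95% Poisson interval 86.4 to 92.2). They took 5753 CPM of the pubertal reads (5735 to 5771). Of the adult reads they took 14956 CPM (14900 to 15011), or 1.50% of all reads. The log2 ratio was 1.38 for adult over puberty and 5.93 for puberty over pre-puberty, with 5 CPM added to both values as for each log2 ratio between groups given here. These sums rested on few cells. At puberty the 5 richest cells held 58.1% of the milk protein reads, and in the adult they held 78.8%. Without its richest cell the sum was 36.4 CPM at pre-puberty, 4905 CPM at puberty and 11940 CPM in the adult, and the pre-pubertal value thus rested mostly on cell 55.

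**Figure D1:**
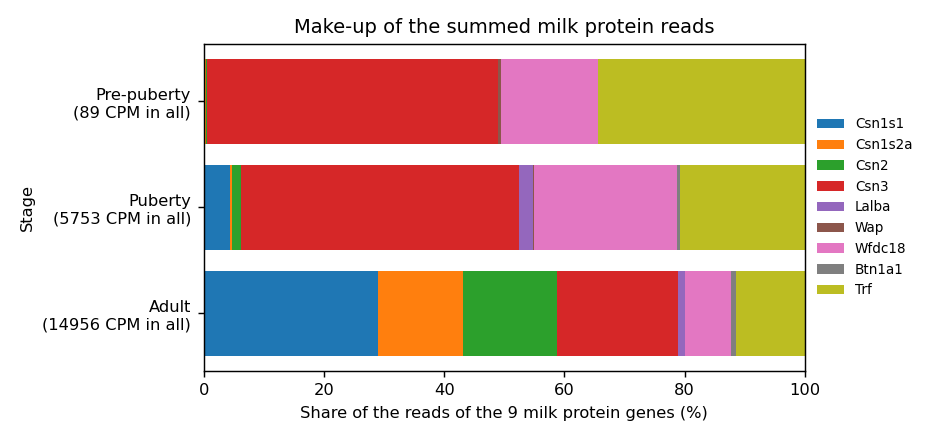
Share of the summed milk protein reads (x axis, %) taken by each of the 9 genes (colours) at each stage (y axis), with the summed level in CPM beside the stage. Csn3, Wfdc18 and Trf made up nearly all of the pubertal bar, and Csn1s1, Csn1s2a and Csn2 took 28.9%, 14.2% and 15.6% of the adult bar.

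Csn1s1, Csn1s2a and Csn2 encode the calcium-sensitive caseins, which form the bulk of the micelle. Csn1s1, for alpha-S1-casein, had 0 reads in 116 pre-pubertal cells, 250.1 CPM at puberty and 4327 CPM in the adult, a log2 ratio of 4.09 for adult over puberty. Csn1s2a, for an alpha-S2-like casein, had 0.418 CPM at pre-puberty, 21.5 CPM at puberty and 2127 CPM in the adult, a log2 ratio of 6.33. Csn2, for beta-casein, had 0.0737 CPM at pre-puberty, 82.6 CPM at puberty and 2336 CPM in the adult, a log2 ratio of 4.74. The pubertal values of the latter pair came from 1 cell, pubertal cell 85, which held 100% of the Csn2 reads and 99.5% of the Csn1s2a reads of its stage. Without the richest cell of each stage for each gene, the adult log2 ratio was 7.92 for Csn1s2a and 8.41 for Csn2, with 0.103 CPM of Csn1s2a and no Csn2 read then left at puberty.

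Csn3 followed another course. Its level was 43.1 CPM at pre-puberty, 2667 CPM at puberty and 3020 CPM in the adult, so the log2 ratio was 5.79 for puberty over pre-puberty and 0.18 for adult over puberty. An annotated long non-coding RNA, 1700066N21Rik, overlaps Csn3, and how reads shared by overlapping genes were treated is not given in the sources used here. That RNA had 26 reads at puberty and 0 in the adult.

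Lalba, whose product turns galactosyltransferase into lactose synthase, had 0.0491 CPM at pre-puberty, 132.5 CPM at puberty and 155.8 CPM in the adult. Wap, the main whey protein gene of the mouse, stayed close to 0, with 0.491 CPM, 4.15 CPM and 1.23 CPM. Of its 284 pubertal reads 99.6% came from cell 85, and its 23 adult reads came from cell 10 alone. Wfdc18, for a small secreted protein with the disulfide core of whey acidic protein, had 14.3 CPM, 1372 CPM and 1154 CPM. Btn1a1, for the butyrophilin of the milk fat globule membrane, had 0 reads, 23.8 CPM and 107.3 CPM. Trf, for the iron carrier transferrin, which is made outside the mammary gland as well, had 30.8 CPM, 1199 CPM and 1726 CPM. For Csn3, Lalba, Wfdc18 and Trf the adult log2 ratio over puberty lay between -0.25 and 0.52, whereas it was 1.96 for Btn1a1, or 1.30 without the richest cell of each stage.

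Of the 8 genes that reached 10 CPM in 1 of the stages compared, 4 exceeded a log2 ratio of 1 in the adult over puberty (Csn1s1, Csn1s2a, Csn2 and Btn1a1), where 20.7% of 9464 genes did. Their median log2 ratio was 1.24, against -0.10 over all genes tested. All 8 exceeded 1 for puberty over pre-puberty, where 24% of 9869 genes did, and for adult over pre-puberty, where 28.9% of 9753 genes did. Csn1s1, Csn1s2a, Csn2, Lalba and Btn1a1 stood at 0 to 0.418 CPM at pre-puberty. For these genes, reaching 10 CPM at the later stage was enough to exceed 1, so the filter fixed their calls over pre-puberty. Without the richest cell of each stage, the log2 ratio for puberty over pre-puberty was 0.02 for Csn1s2a and 0 for Csn2. Wap was below 10 CPM at every stage. All 9 genes are in the study's list of luminal genes, and most of them in clusters the study chose on cells that overlap these, so the directions are not independent evidence.

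Scaled by gene length to reads per 1000 bases per 1000000 reads (RPKM), the adult order was Csn1s1 at 3056 RPKM, Csn1s2a at 2312, Wfdc18 at 2122, Csn2 at 2086, Csn3 at 1891, Trf at 740.3, Lalba at 212.5, Btn1a1 at 31.1 and Wap at 2.19. The order of the first 5 genes was not settled by these cells, since leaving out its richest cell lowered Csn1s1 from 4327 to 2730 CPM and Csn1s2a from 2127 to 1232 CPM. At puberty the order began with Wfdc18 at 2521 RPKM and Csn3 at 1670, followed by Trf at 514.3, Lalba at 180.8, Csn1s1 at 176.6, Csn2 at 73.7 and Csn1s2a at 23.3. Wap at 7.38 RPKM and Btn1a1 at 6.91 closed it. Lalba and Csn1s1, neighbours at puberty, were not told apart, since without its richest cell Lalba went from 132.5 to 90.6 CPM and Csn1s1 from 250.1 to 98.9 CPM.

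For the share of cells with a gene, each cell was thinned at random to 100000 reads, so that depth was equal and 1 read stood for 10 CPM. In the adult, Csn3 was detected in 72.7% of cells (exact 95% interval 57.2 to 85.0), Csn1s1 and Csn1s2a each in 61.4% (45.5 to 75.6), Trf in 56.8% (41.0 to 71.7) and Csn2 in 47.7% (32.5 to 63.3). Lower adult shares were those of Wfdc18 at 36.4%, Btn1a1 at 25.0%, Lalba at 13.6% and Wap at 2.27%. At puberty Csn3 led with 37.0% (28.3 to 46.3), followed by Wfdc18 with 24.4% and Trf with 20.2%, whereas Csn1s1 was found in 6.72%, Lalba in 6.72%, Csn1s2a and Wap each in 1.68% and Csn2 in 0.840%, and Btn1a1 in 5 of 119 cells. At pre-puberty the shares ran from 0% for Csn1s1 and Btn1a1, where 0 of 116 cells allows a share of up to 2.59%, to 4.31% for Wfdc18 and Trf.

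Adult detections were often of few reads. With at least 10 of 100000 reads required, the adult share fell to 40.9% for Csn1s1, 38.6% for Csn1s2a, 27.3% for Csn2 and 34.1% for Csn3 and Trf. The pubertal share of Csn3 was nearly the same under this rule, 35.3%, so that the adult and pubertal shares of Csn3 lay within each other's intervals. Among the cells in which Csn3 was found, its median was 335 reads of 100000 at puberty and 9 in the adult.

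**Figure D2:**
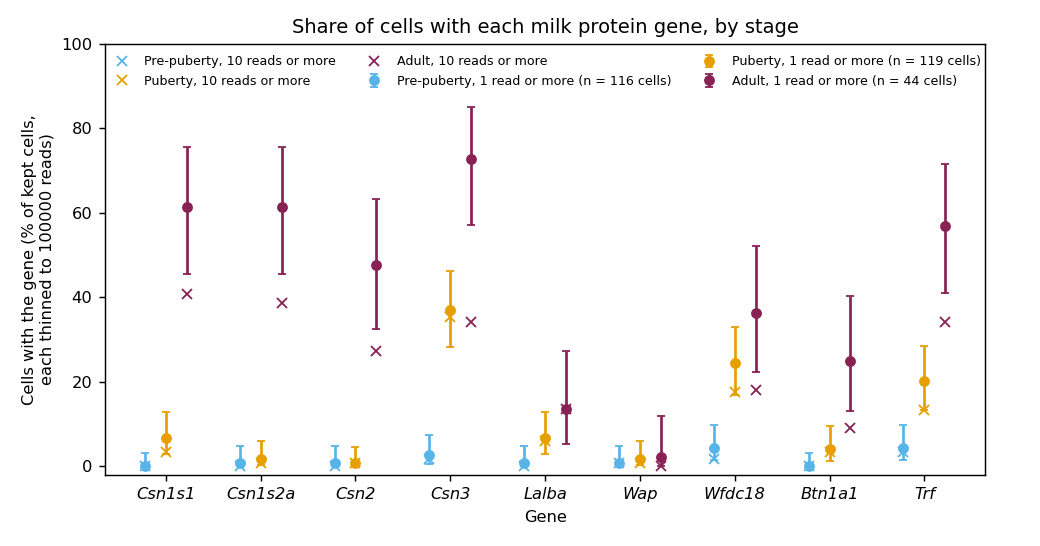
Share of kept cells (y axis, %) with each milk protein gene (x axis) at pre-puberty, puberty and adulthood, after thinning to 100000 reads per cell. Circles stand for at least 1 read with the exact 95% binomial interval and crosses for at least 10 reads, and the adult crosses sit well below the adult circles for the caseins, Trf and Wfdc18.

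Co-detection was more frequent at the later stages. At least 3 of the 9 genes were found in 1 of 116 pre-pubertal cells. At puberty 14 of 119 cells held 3 or more (11.8%, 6.58 to 19.0), and in the adult 29 of 44 did (65.9%, 50.1 to 79.5). None of the 9 was found in 105 pre-pubertal, 59 pubertal and 6 adult cells. At 10 reads or more, at least 3 of the 9 genes were found in 9.24% of pubertal and 34.1% of adult cells.

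The genes that occurred together differed between the stages. In the adult, 21 of 44 cells had Csn1s1, Csn1s2a and Csn2 at once, and at puberty 1 of 119 did. Of the 27 adult cells with Csn1s1, 24 also had Csn1s2a and 24 had Csn3. Spearman's rho over the 44 adult cells was 0.92 between Csn1s1 and Csn1s2a and also between Csn1s1 and Csn2, but 0.37 between Csn1s1 and Wfdc18. At puberty Csn3 was present without Csn1s1, Csn1s2a and Csn2 in 38 of 119 cells (31.9%, 23.7 to 41.1), a pattern seen in 5 of 44 adult cells (11.4%, 3.79 to 24.6). The partners of Csn3 there were Wfdc18, in 21 of the 44 pubertal cells with Csn3, and Trf, in 15. Among these pubertal pairs rho was 0.52 for Csn3 with Wfdc18 and 0.54 for Wfdc18 with Trf, over 119 cells. The labels name no sort, chip or preparation for a cell, and many values are 0, so these correlations are descriptions.

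Ordered by the sum of the 9 genes, adult cells fell into separate ranges. A limit of 1000 reads of 100000, or 1% of a cell's reads, was chosen after the values were seen. The 8 adult cells above it carried 2135 to 18607 milk protein reads of 100000, and the next cell below carried 331. These 8 cells held 98.2% of the adult milk protein reads. Of the 17 pubertal cells above the limit, the lowest had 1067 and the highest 9680, and values continued just below it at 824. A single pre-pubertal cell, cell 55, reached 1790 reads, of which 1271 were of Csn3 and 450 of Wfdc18.

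**Figure D3:**
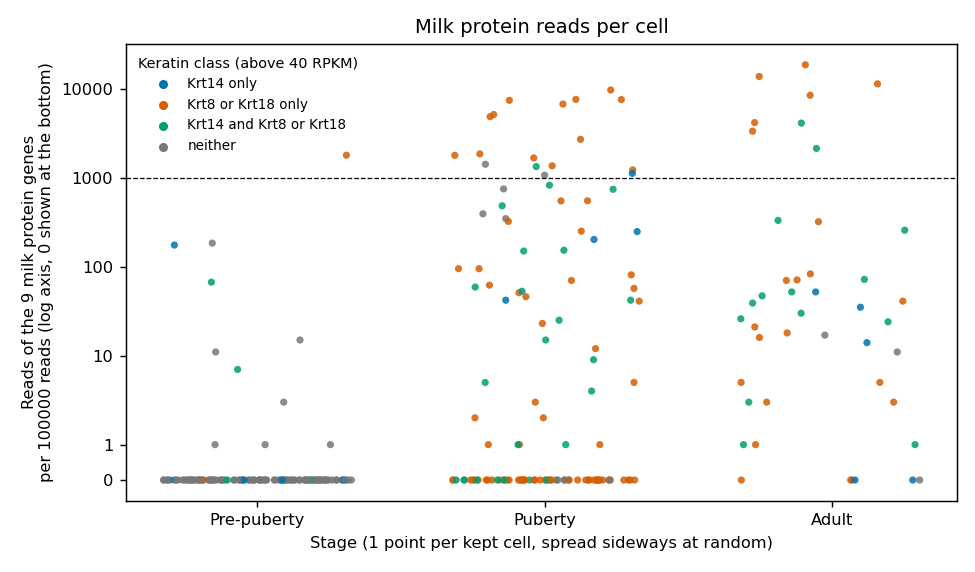
Summed reads of the 9 milk protein genes per 100000 reads (y axis, log scale with 0 drawn at the bottom) in each kept cell of the 3 stages (x axis), coloured by keratin class, with a dashed line at 1000. In the adult no cell lies between 331 and 2135, whereas pubertal cells fill the range below the line.

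The 8 rich adult cells differed from one another in which milk protein gene led. Adult cell 10 had 5328 reads of Csn1s2a, 4652 of Csn3, 3698 of Csn2, 2402 of Csn1s1 and 2326 of Trf per 100000, and it was the sole adult cell with all 9 genes. Cell 65 was led by Csn1s1 with 4391 reads, with 2546 of Trf, 2374 of Csn3 and 1989 of Csn2, and it had the highest Lalba and Btn1a1 of the adult cells, 407 and 373 reads. Cell 21 was led by Csn2 with 4324 reads and cell 30 by Csn1s1 with 4596. Cells 43 and 32 had little Csn2, 7 and 2 reads, although cell 43 had 1776 of Csn1s1 and 1301 of Wfdc18 and cell 32 had 1822 of Csn3 and 1086 of Trf. Cell 52 held Csn2, Csn1s2a and Csn1s1 evenly, with 964, 917 and 873 reads, and no Wfdc18. Cell 57 had 681 reads of Csn1s1 and 631 of Csn2 but 3 of Csn1s2a and 0 of Csn3, and it passed the coverage filter with 1502 genes where the minimum was 1500. Lalba was found in 6 adult cells, and all 6 were among these 8.

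**Figure D4:**
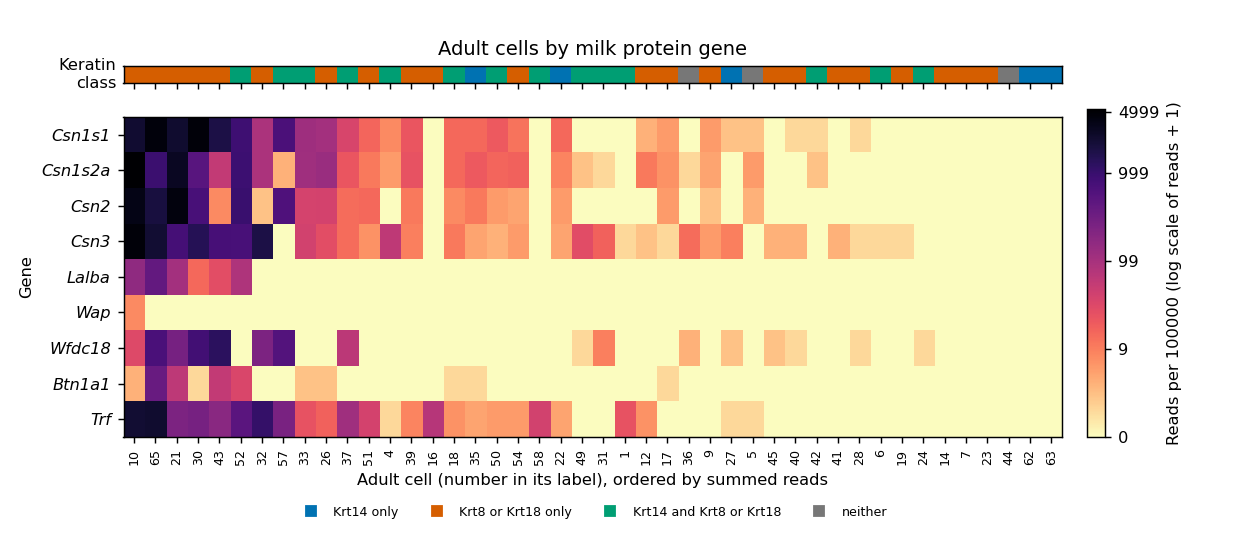
Reads per 100000 (colour, log scale of reads plus 1) of each milk protein gene (rows) in the 44 adult cells (columns, by the number in the label), ordered by summed reads, with the keratin class above. The 8 cells at the left hold Lalba and most reads of every gene, and the caseins and Trf continue at low level through cells of all keratin classes.

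The other 36 adult cells carried 0 to 331 milk protein reads of 100000, and 22 of them had at least 1 read of Csn1s1, Csn1s2a or Csn2. Ratios were taken in the 12 of them with at least 20 Csn1s1 reads before thinning, and not in the cells with fewer. In these 12 cells the caseins stood in a narrow ratio to each other, which Trf and Wfdc18 did not share. The median was 1 Csn1s2a read per Csn1s1 read, and the highest ratio, 1.24, was 2.07 times the lowest. Among the 8 rich cells this ratio ran from 0.00341 to 2.24. Csn2 reads per Csn1s1 read had a median of 0.373 and a maximum of 0.717 in the former, and ran from 0.00448 to 1.71 in the latter. In the same 12 cells the highest ratio of Csn3 to Csn1s1 was 2.66 times the lowest. For Trf it was 35.4 times the lowest, and Wfdc18 had 0 reads in 11 of the 12. The ratio of summed Csn1s2a to summed Csn1s1 reads below the limit was 0.948 in cells with Krt14 only, 1.12 in cells with Krt8 or Krt18 only and 0.892 in cells with both. In the 3 cells with neither keratin type it was 2, from 14 and 7 reads. Whether these low reads were transcribed in the cells that carried them was not tested.

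The 17 rich pubertal cells were of another make-up. All 17 had Csn3, 15 had Wfdc18 and 12 had Trf, while 5 had any of Csn1s1, Csn1s2a and Csn2. Cell 85 had 8 of the 9 genes, with 3711 reads of Csn3, 1639 of Csn1s1, 922 of Csn2 and 233 of Csn1s2a per 100000. Cell 24 had 2652 reads of Wfdc18, 2305 of Csn3 and 1052 of Csn1s1 but neither Csn2 nor Csn1s2a. Cells led by a single gene were also found, such as cell 4 with 7234 of its reads from Wfdc18, and cells 16 and 32 in which Trf was the highest of the 9 genes.

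Keratin classes were set by Krt14 on the one hand and Krt8 or Krt18 on the other, each above 40 RPKM. The adult cells comprised 5 with Krt14 only, 22 with Krt8 or Krt18 only, 14 with both and 3 with neither. The pubertal cells comprised 5, 80, 24 and 10, and the pre-pubertal cells 10, 2, 7 and 97. At pre-puberty the summed 9 genes stood at 4548 CPM in the 2 cells with Krt8 or Krt18 only, all from cell 55. The pre-pubertal sum was 106.7 CPM with Krt14 only, 79.6 CPM with both and 24.9 CPM with neither. Several cells lay near the limit: 13 adult and 19 pubertal cells had 1 of the keratins between 20 and 80 RPKM.

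In the adult, milk protein level was highest in cells with Krt8 or Krt18 only, at 24183 CPM for the sum of the 9 genes (24087 to 24279), against 6412 CPM in cells with both keratin types and 222.7 CPM in cells with Krt14 only (202.7 to 244.2), or 88.1 CPM without Krt14 only cell 35. None of the 8 rich cells was of the Krt14 only class, 6 had Krt8 or Krt18 only and 2, cells 52 and 57, had both. Without cell 52 the class with both stood at 1768 CPM. Without all 8 rich cells, the 9 genes summed to 286.9 CPM in the 16 other cells with Krt8 or Krt18 only. The 12 other cells with both stood at 526.2 CPM, and the Krt14 only class stayed at 222.7 CPM. Median sums were 10.5, 34.5 and 14 reads of 100000. The high level with Krt8 or Krt18 only thus rested on its 6 rich cells. Whether the Krt14 only class lacks rich cells could not be decided from 5 cells. The contractile gene Acta2 had 1030 reads of 100000 in cell 52 and 11 in cell 57. Csn1s1 was at 7227 CPM in cells with Krt8 or Krt18 only and 65.6 CPM in cells with Krt14 only, and Csn2 at 3500 and 32.8 CPM. Lalba had 0 reads in the latter class and 234.8 CPM in the former. All 8 genes that reached 10 CPM in either class exceeded a log2 ratio of 1 for the cells with Krt8 or Krt18 only, but so did 58.4% of 7415 genes, and the median was 6.54 for the members and 1.72 for all genes tested. For Lalba and Btn1a1, at 0 and 1.47 CPM with Krt14 only, reaching 10 CPM in the other class was enough for the call.

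The share of adult cells with at least 3 of the 9 genes did not follow the level. It was 3 of 5 cells with Krt14 only, 15 of 22 with Krt8 or Krt18 only (68.2%, 45.1 to 86.1) and 9 of 14 with both (64.3%, 35.1 to 87.2), and the intervals overlapped. In the 3 Krt14 only cells the reads were few: cell 35 had 52 milk protein reads of 100000, cell 22 had 35 and cell 27 had 14, and the highest single value was 19 reads of Csn1s2a in cell 35. The median depth was 487973 reads in these 5 cells and 331444 in cells with Krt8 or Krt18 only. With 5 cells (3 of 5 has an interval of 14.7 to 94.7%) a difference in shares between the classes was not detectable, and with keratin limits of 10 RPKM or of 1 thinned read 1 adult cell was left with Krt14 only, and it did not hold 3 of the 9 genes. At 10 reads or more, 3 of the 9 genes were found in 1 of 5 cells with Krt14 only, 9 of 22 with Krt8 or Krt18 only and 5 of 14 with both.

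At puberty Csn3 was read in every keratin class, whereas nearly all reads of the other caseins came from cells with Krt8 or Krt18 only. In 5 pubertal cells with Krt14 only, Csn3 was found in 4, with 42, 202, 248 and 1090 reads of 100000 beside 238 to 820 reads of Acta2, and stood at 3192 CPM, or 1441 CPM without the richest of them. In 80 pubertal cells with Krt8 or Krt18 only it was found in 25, at 2897 CPM. Csn3 stood at 758.1 CPM in the 24 cells with both keratin types and at 4634 CPM in the 10 with neither. Over all 29 cells with Krt14 it was 1338 CPM, and over all 104 with Krt8 or Krt18 it was 2415 CPM. Csn1s1, Csn1s2a, Csn2, Lalba and Btn1a1 had 0 reads in these Krt14 only cells, and Wfdc18 had 0.489 CPM against 1960 CPM. Of the 8 genes tested, 7 exceeded a log2 ratio of 1 for the cells with Krt8 or Krt18 only, where 51.7% of 8662 genes did. All of the 7 but Trf had at most 0.489 CPM with Krt14 only, so reaching 10 CPM in the other class fixed their calls. The exception was Csn3, at -0.14. Without the richest cell of each class, Csn3 stood at 1441 CPM with Krt14 only and 2001 CPM with Krt8 or Krt18 only. Its direction thus rested on single cells. Without the richest cell of each gene in both classes, 5 of the 8 exceeded 1 and 66.1% of all genes did, since cell 85 held all of the Csn2 and nearly all of the Csn1s2a reads. At least 3 of the 9 genes were found in 0 of 5 cells with Krt14 only, 13 of 80 with Krt8 or Krt18 only (16.3%, 8.95 to 26.2) and 1 of 24 with both (4.17%, 0.105 to 21.1).

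Cells were also divided by whether more of 10 luminal progenitor markers, such as Kit, Elf5 and Aldh1a3, or more of 10 mature luminal markers, such as Pgr, Esr1 and Prlr, were detected. The milk protein genes stood far higher on the progenitor side at both stages. At puberty the sum of the 9 genes was 23249 CPM in 26 cells with more progenitor markers and 803.0 CPM in 87 cells with more mature markers, or 456.6 CPM without the richest of these 87. In the adult the values were 41162 CPM in 13 cells and 260.6 CPM in 27 cells. Csn3 was detected in 22 of the 26 pubertal cells with more progenitor markers (84.6%, 65.1 to 95.6) and in 19 of the 87 with more mature markers (21.8%, 13.7 to 32.0), whereas in the adult it was detected on both sides, in 69.2% and 74.1% of cells. At 10 reads or more the adult sides were 8 of 13 and 6 of 27 for Csn3, and 8 of 13 and 0 of 27 for Wfdc18. The progenitor list shares 4 genes with the list of other milk genes below. Without these 4 and without Prlr, the sums were 40797 CPM in 15 pubertal cells with more progenitor markers and 808.2 CPM in 91 with more mature markers, and 81362 CPM in 5 and 1992 CPM in 30 adult cells. This left 6 progenitor markers, fewer than the mature ones. The progenitor markers left still included Elf5, and the mature ones Pgr, which are both in the list of prolactin pathway and alveolar genes below. Cells with equal numbers of both stood at 4572 CPM (13 pubertal cells) and 16708.5 CPM (9 adult cells).

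**Figure D5:**
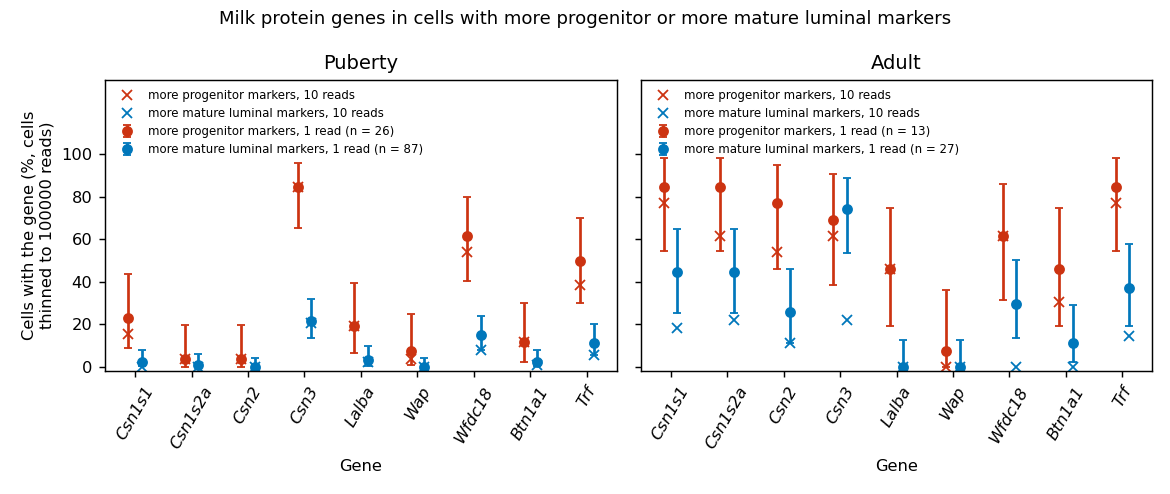
Share of cells (y axis, %) with each milk protein gene (x axis) among pubertal cells (left) and adult cells (right) with more luminal progenitor markers (red) or more mature luminal markers (blue). Circles with exact 95% binomial intervals stand for at least 1 of 100000 reads and crosses for at least 10, and in the adult the blue crosses of Wfdc18, Lalba and Btn1a1 lie at 0.

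Of 18 genes of the prolactin pathway and of alveolar transcription factors, 16 reached 10 CPM at puberty or in the adult. Of these, 8 exceeded a log2 ratio of 1 in the adult, where 20.7% of all genes did, with none below -1 and a median of 0.97 against -0.10 over all genes tested. With the richest cell of each gene left out of both stages, 5 of the 16 remained above 1 (not Jak2, Elf5 and Wnt4), and 7.48% of all genes did. Prlr, the receptor of prolactin, stood at 31.7 CPM at pre-puberty, 2926 CPM at puberty and 5041 CPM in the adult, and was found in 89.9% of pubertal and 84.1% of adult cells. Stat5a, for its signal transducer, had 67.7, 41.7 and 68.0 CPM. Elf5, an alveolar transcription factor gene, had 0.197, 9.94 and 28.3 CPM, and Cebpb had 13.1, 48.4 and 117.7 CPM. The greatest differences between adult and puberty in this list were those of the progesterone target Tnfsf11 (log2 ratio 2.14), the glucocorticoid receptor gene Nr3c1 (2.00) and the signalling gene Wnt4 (1.37). Without the richest cell of each stage these were 1.12, 1.78 and 0.70, and that of Elf5 went from 1.15 to 0.76. Prlr was found in 5 of the 8 rich adult cells and in 32 of the 36 others. Elf5 was found in 6 of the 8 and in none of the 36.

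Other milk genes, such as those for milk lipids and defence proteins, did not move as one. Of 29, 20 were tested between adult and puberty, 8 exceeded a log2 ratio of 1 (20.7% of all genes did) and 3 lay below -1, with a median of 0.25 against -0.10 over all genes tested. Without the richest cell of each gene in both stages, 4 exceeded 1 and 6 lay below -1, and the medians were -0.38 for the list and -0.62 for all genes. The greatest differences were those of Ltf, for lactoferrin (-3.79, from 71.8 CPM at puberty to 0.535 CPM), Spp1, for osteopontin (2.86, from 413.9 to 3037 CPM, or from 68.1 to 465.5 CPM without the richest cells), and Cidea, a lipid droplet gene (2.80), which was read in 1 adult cell alone. Glycam1 and Olah had 0 reads in the adult and at puberty. Within 100 kb of the casein genes, the files held 10 genes that are not caseins and a further casein gene, Csn1s2b, next to Csn1s2a. Csn1s2b had 5, 1 and 0 reads at the 3 stages. Odam, between Csn1s2b and Csn3, had 344 reads at puberty and 0 in the adult. The highest value among the 9 others was 1.74 CPM, for Gm7337 at puberty.

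The genes whose thinned values were most like the sum of the 9 genes over the 44 adult cells, by Spearman's rho among 3532 genes found in at least 10 of them, were Met (0.64), Lipa (0.64), Plin2 (0.63), Lcn2 (0.62), Cdc7 (0.58), Plb1 (0.58), Cp (0.58), Clcn3 (0.58), Cbr2 (0.56) and Igbp1 (0.55). Lcn2, for the iron-siderophore binder lipocalin 2, was also the first of 8220 genes over the 119 pubertal cells, with 0.61. The others stood lower there, from rank 105 for Cp (0.31) and 111 for Plin2 (0.30) to 2976 for Met (0.04) and 6919 for Clcn3 (-0.11), and Cdc7 was not ranked there. Sequencing depth before thinning had a rho of -0.03 in the adult and -0.08 at puberty.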

How the data were processed

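Per the labels and the study's methods, read pairs of sorted FVB/NJ mammary cells from the Fluidigm C1 system were aligned to mm10 with Subread (1.4.6 in the submitters' processing notes) and counted per Entrez gene with featureCounts and its RefSeq annotation. The deposited values are raw counts per cell, with the authors' gene length in bases (another column, used for RPKM). A second deposited table repeats the counts and was not used.

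Of 27179 genes, 25275 had a symbol in the RefSeq annotation of GRCm38.p6. The 1904 others, 15 mitochondrial and 118 ribosomal protein genes were removed. Cells with at least 100000 reads and 1500 genes were kept, as in the study. No doublet caller was run, since the study inspected each capture site. No kept cells had identical counts. Counts were summed per stage as CPM with exact Poisson intervals, and shares were taken after thinning to 100000 reads (seed 1) with Clopper-Pearson intervals at 95%; limits for 0 cells used 3 counts. Log2 ratios had 5 CPM added and a call meant above 1, among genes at 10 CPM or more in either group. A gene near 0 CPM in the lower group was thus called whenever it reached 10 CPM in the other. Only description was possible, so no test was made and no p-value is given.

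The members and gene lists were chosen with earlier results of these data known. Named genes are the 9 members, the keratins, Prlr, Stat5a, Elf5, Cebpb, the 3 genes of each list with the greatest adult to puberty ratio either way, the 10 genes most like the summed members, and genes within 100 kb of the caseins; the other genes and single cells named were chosen after their values were seen. The log2 ratios were tested on simulated stage sums with known changes. These sums had no spread between cells, so the effect of single rich cells was not covered. Python 3.11.15, numpy 2.4.6, pandas 2.3.3, scipy 1.17.1 and edgeR 4.0.16 (scaling alternative) were used.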

Additional observations from a re-analysis of the deposited data

Results flagged for a closer look

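Cells that did not pass the coverage filter enter no comparison, and in 2 stages they held milk protein reads above the level that a count of 0 allows. The 17 pubertal cells left out had 1574 CPM of the 9 genes (1485 to 1666), and 36.3% of these reads came from 1 cell. The 22 adult cells left out had 9494 CPM (9207 to 9787), and 18 of the 22 had at least 1 such read although their median depth was 14430.5 reads. The kept cells had 5753 CPM at puberty and 14956 CPM in the adult. The 28 pre-pubertal cells left out had 1 milk protein read in all.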

How the results depend on the processing

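No alternative reversed the order of the stages for the summed 9 genes. For single genes, the adult over pubertal order turned for Csn3 at 10 reads or more (34.1% against 35.3% of cells) and for Lalba without its richest cells (87.9 against 90.6 CPM). That of the share of cells with Wap turned at 10 reads or more (0% against 0.840%) and without its richest cells (0% against 0.847%). The log2 ratio of the summed 9 genes for adult over puberty, 1.38, became 1.36 with the total of all genes in the files, 1.36 with the mean of the cells' own CPM, 1.28 without the richest cell of each stage, 1.22 with a filter of 200000 reads and 2000 genes, and 1.92 without Trf and Wfdc18. That for puberty over pre-puberty, 5.93, became 5.99 with 1 CPM added, 5.86 with TMM factors, 5.79 with the total of all genes, 4.93 with the mean of the cells' own CPM, 6.89 without the richest cells, 7.03 with the stricter filter and 6.02 without Trf and Wfdc18. These exceed counting intervals that leave out the spread between mice. The share of cells with at least 3 genes became 0% at pre-puberty with the stricter filter. With at least 1 gene it was 9.48%, 50.4% and 86.4% at pre-puberty, puberty and adulthood, and with at least 1 casein 38.7% at puberty and 79.5% in the adult. At 10 reads or more it was 34.1% in all adult cells and 40.9% in those with Krt8 or Krt18 only. In adult cells with Krt14 only it became 0% with keratin limits of 10 RPKM or of 1 thinned read, each of which left 1 cell in the class. The other 45 values of this share stayed within the interval of the main value. Of 81 shares of single genes 62 did so, as did 2 of 27 levels without the richest cell. Without the richest cell of each gene, an alternative chosen after the data were seen, the adult over puberty calls went from 8 to 5 in the prolactin list and from 8 to 4 among the other milk genes. Another chosen then, with 123 ribosomal protein genes removed, left out adult cell 57 and gave 60.5% for the adult share; the thinning draw also changed. No paired analysis was possible because the numbers in the labels name cells and the results come from no test.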

Other observations

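Among the kept adult cells, 1 of the 4 with numbers from 58 to 65 had a casein read after thinning (25.0%, 0.631 to 80.6), and 34 of the 40 with lower numbers did (85.0%, 70.2 to 94.3). The number 58 was chosen after the values were seen, and what the numbers stand for is not given in the sources used here.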
